A study of Caenorhabditis elegans with 9 samples.

Results

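Isolated narrow EGL-5 binding regions are described here, those of the genome-wide map in third-stage (L3) larvae of Caenorhabditis elegans that stand alone, are short and were called in both replicates. Members were chosen by measured positions: a peak of the authors' combined list had to be under 900 bp wide, have no other combined midpoint within 5000 bp on its chromosome, and share at least 1 bp with a peak of replicate 1 and with a peak of replicate 2. By this rule 304 of the 4688 combined peaks were members. They are set beside 856 equally isolated and narrow combined peaks that overlapped no peak of either replicate. A further 596 such peaks overlapped replicate 1 alone and 178 replicate 2 alone, which makes 1934 isolated narrow peaks in all. Without the limits on width and isolation, 18.9% of combined peaks were found in both replicates and 41.4% in neither; since overlap chose the classes, nothing is read from these counts.

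Both replicates used hermaphrodite larvae of 1 strain, OP54, grown at 20 °C. Its worms carry the allele unc-119(ed3) on chromosome III and the transgene wgIs54, which joins the rescuing marker unc-119(+) with a tagged egl-5, written egl-5::TY1::EGFP::3xFLAG. The transgene was brought in by bombardment and the strain record says that it follows the egl-5 expression pattern; the genotype lists no mutation of the endogenous egl-5. Chromatin bound by the tagged protein was collected with goat antibodies against GFP and sequenced (ChIP-seq). The labels list 2 ChIP libraries for replicate 1, 2 for replicate 2 and 5 libraries of input, which is chromatin not taken through the antibody; all 5 inputs are titled replicate 2. No library of untagged worms was analysed here, and nothing in the labels says whether the replicates came from separate cultures. The files hold peaks and not reads, so the depth of each library is unknown, and every interval on a count covers the counting of peaks alone.

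EGL-5 is the Abdominal-B class Hox protein of C. elegans, a homeodomain transcription factor that gives posterior cells their identity. It is known for its roles in the rectal epithelium, in the hermaphrodite-specific motor neurons (HSN), in the posterior touch neurons and in the male tail. It is expressed in few cells, so chromatin of whole larvae comes mostly from cells without it, and fewer cells with a bound site cannot be told apart from weaker binding in each. The autosomes of this species have gene-rich centres and repeat-rich arms, a division that is weaker on X.

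The 2 members of lowest combined q on each chromosome are described first, with the replicate midpoints of these 12 lying 7.5 to 180.5 bp apart. Strength here means the q-value, the false discovery rate that the authors' peak caller PeakSeq gave each peak against input; it depends on read depth and is no measure of occupancy. The member of lowest combined q lay on chromosome III at chrIII:10742256-10742743 on WormBase WS190. Its q was 3.26e-24 in the combined list, 5.81e-12 in replicate 1 and 1.39e-12 in replicate 2, and its 3 peaks were 488, 440 and 474 bp wide in the same order of lists. It ranked 19th, 25th and 18th in these lists, so all 3 put it near the top, and the replicate midpoints were 12 bp apart. The other named member of that chromosome, at chrIII:459786-460265 (q = 3.53e-19), lay near the left end, at 3.17% of the span of called peaks. Replicate 1 ranked it 27th and replicate 2 235th, and the midpoints of the replicate peaks were 15 bp apart.

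On chromosome I, chrI:14469127-14469512 had q = 4.40e-23 in the combined list, 1.34e-13 in replicate 1 and 1.47e-06 in replicate 2. The combined peak measured 386 bp, the replicate 1 peak 384 bp and the replicate 2 peak 310 bp. The chromosome's other named member, chrI:11105611-11106066 (q = 2.60e-22), ranked 42nd and 63rd in the replicates, and its replicate midpoints were 84.5 bp apart. Both thus stood among the first 29 of the combined list, while replicate 2 placed the stronger one 132nd. On chromosome II the named members had weaker calls. One, chrII:8561158-8561585, had q = 1.50e-17 and stood 60th in the combined list, with rank 87 for replicate 1 and rank 80 for replicate 2. The other, chrII:5593369-5593930, had q = 8.28e-14, with 3.41e-09 in replicate 1 and 0.000344 in replicate 2. Both lay in the central 33.3% of the chromosome's span of called peaks, unlike the named members of I, III and IV. Those lay outside it, in the parts here called arms.

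On chromosome IV the member chrIV:1659021-1659502 (q = 4.35e-22) showed how the lists can place an edge differently. Its combined peak was 482 bp wide, the replicate 1 peak 878 bp and the replicate 2 peak 365 bp. The replicate 1 peak began 396 bp further left and ended at the same base as the combined peak, which put the replicate midpoints 180.5 bp apart. The second, chrIV:385019-385795 (q = 3.21e-20), was close in all 3 lists at 777, 719 and 690 bp, with q = 2.03e-09 in replicate 1 and 1.41e-09 in replicate 2. Chromosome V had chrV:3677204-3677741 (q = 1.19e-21) and chrV:13777882-13778275 (q = 3.45e-21), whose replicate midpoints were 7.5 and 16.5 bp apart. The first was stronger in replicate 2, where it ranked 21st against 82nd in replicate 1. On X the named members were chrX:12362736-12363560 (q = 1.12e-19) and chrX:16056146-16056742 (q = 6.94e-19). Both had lower q in replicate 2, at 6.00e-11 and 4.23e-12, than in replicate 1, at 8.71e-08 and 1.17e-07. Their replicate midpoints were 8.5 and 17 bp apart.

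**Figure D1:**
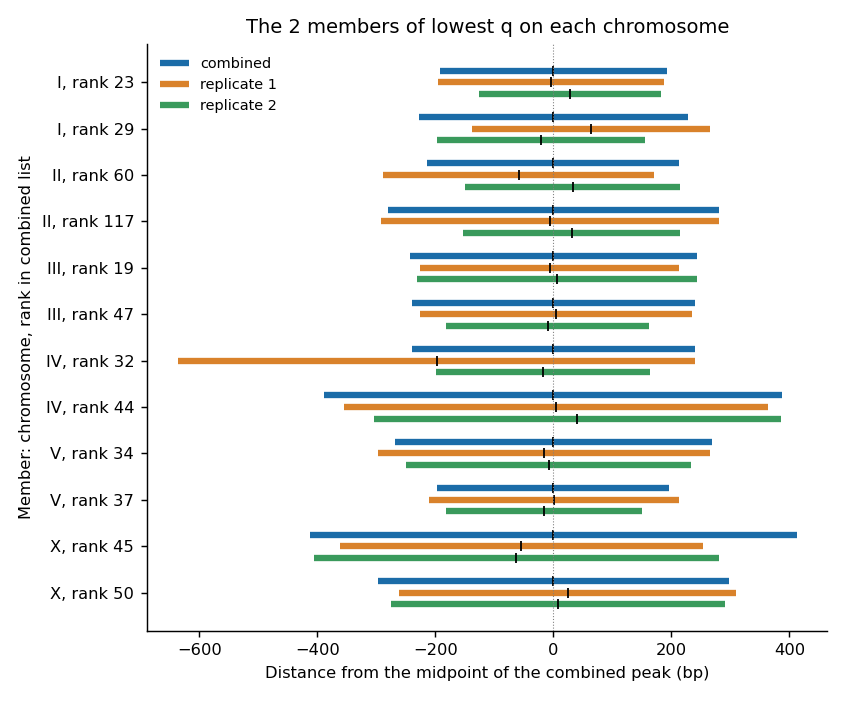
Extent of the 12 members named above (the 2 of lowest combined q on each chromosome) as distance in bp from the midpoint of the combined peak, with the combined, replicate 1 and replicate 2 peaks as bars and their midpoints as ticks. Replicate midpoints were 7.5 to 180.5 bp apart, and the replicate 1 peak of the first chromosome IV member reaches furthest from the shared stretch.

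The rule asked that each replicate peak touch a combined peak under 900 bp wide. This favours replicate peaks that lie close together, so the closeness of the 3 lists is given as a description. All 304 members overlapped exactly 1 peak of each replicate (95% Wilson interval 98.8% to 100%). Among isolated peaks in both replicates of 900 bp or more, 48 of 58 did. All 396 narrow peaks in both replicates that were not isolated did as well, so this is not particular to isolated peaks. The replicate peaks also overlapped each other in all 396 of those non-isolated narrow peaks, and in 303 of the 304 members (99.7%, 98.2 to 99.9). The rule did not ask for this, but a narrow combined peak leaves little room for 2 separate ones. The exception was chrX:13873216-13874020, an 805 bp combined peak with a 228 bp replicate 1 peak and a 337 bp replicate 2 peak lying 215 bp apart inside it. Since 1 base of overlap was enough, this member joins 2 separate calls.

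Midpoints of the replicate peaks lay a median of 32.0 bp apart (exact binomial interval of the median 27.0 to 37.5, n = 304). The quartiles were 16.4 and 63.1 bp and the range 0.5 to 497.5 bp. The distance was at most 25 bp in 126 members (41.4%), at most 50 bp in 203 (66.8%), at most 100 bp in 266 (87.5%) and at most 200 bp in 302 (99.3%). The median was 8.62% of the largest distance at which peaks of those widths would still overlap. The closest were chrV:349088-349467 at 0.5 bp, and chrI:10733645-10734006 and chrIV:2941636-2941946 at 1 bp each. They ranked 1419th, 436th and 634th in the combined list, where the median member ranked 579.5, and the first was the very last of the replicate 2 list with q = 0.01. The largest distances after the exception on X were 203 bp at chrX:1093043-1093717, where replicate 1 called 1169 bp and replicate 2 only 531 bp, and 190 bp at chrII:7151826-7152598.

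Midpoint distance was little related to the strength of the call among members (Spearman's rho -0.09 with combined −log10 q, across 304 peaks that share libraries) and somewhat larger for wider ones (rho 0.29 with combined width). Narrow peaks in both replicates that were not isolated had a median distance of 34.8 bp (29.5 to 40.5, n = 396). Isolated peaks in both replicates of 900 bp or more had one of 163.8 bp (98.0 to 261, n = 58), so the distance was larger in the wide class, and similar in isolated and non-isolated narrow peaks. In 10 of the 58 wide peaks a replicate had more than 1 overlapping peak, and the one of largest overlap was used. Relative to the largest distance that still allows overlap, the wide class had a median of 16.4% (9.05 to 24.2), against 8.62% in members. The combined midpoint was 16.5 bp from that of replicate 1 (13.5 to 20.0) and 20.2 bp from that of replicate 2 (17.0 to 23.0), as medians over members. In isolated narrow peaks found in a single replicate these medians were 12.5 bp (11 to 14, n = 596) for replicate 1 and 18.5 bp (15.0 to 22.0, n = 178) for replicate 2. The combined list may rest on the same reads as the replicate lists, so these last distances are no independent check. For peaks found in neither replicate there is no replicate peak to measure from. The nearest replicate 1 peak was a median of 18238 bp away and the nearest replicate 2 peak 32402 bp, from lists of 2420 and 1345 peaks. Of these 856 peaks, 4 had a replicate 1 peak, and 1 a replicate 2 peak, under 1000 bp away. The choice largely fixes these counts, since the peaks had to overlap no replicate peak and be isolated in the combined list.

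**Figure D2:**
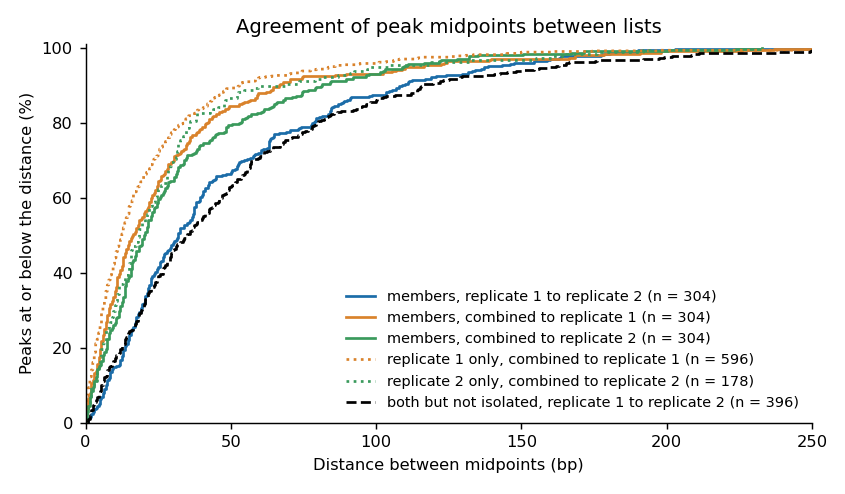
Cumulative share of peaks (%) by the distance between midpoints (bp) for the 304 members (between the replicates, and from the combined list to each), for isolated narrow peaks found in replicate 1 only (n = 596) or in replicate 2 only (n = 178), and for narrow peaks in both replicates that were not isolated (n = 396). The axis ends at 250 bp; the members' replicate midpoints reach 87.5% by 100 bp, and the curve of non-isolated peaks (86.1% by 100 bp) runs beside theirs.

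The combined list drew most members wider than the replicates did. The median width of members was 469 bp (439 to 487) as the combined list drew them, 415.5 bp (391 to 434) as replicate 1 did and 349.5 bp (333 to 367) as replicate 2 did. Per member, the width of the replicate 1 peak was a median of 90.3% of the combined width, and that of the replicate 2 peak 79.7%. The replicate 2 peak was narrower than the combined peak in 299 of 304 members and narrower than the replicate 1 peak in 219 (72.0%, 66.7 to 76.8). Replicate peaks were mostly nested: both lay wholly inside the combined peak in 175 members (57.6%), and the shorter lay wholly inside the longer replicate peak in 166 (54.6%). Relative to the combined peak, replicate 1 began a median of 15.0 bp later and ended 21.0 bp earlier, and replicate 2 began 46.0 bp later and ended 38.5 bp earlier. Both ends thus moved inward by similar amounts. The stretch shared by all 3 lists, present in 303 members, was a median of 318 bp long (306 to 333), or 73.3% of the combined width. Widths in the replicates were correlated across members (Spearman's rho 0.58 between replicate 1 and replicate 2, n = 304), as a description of sites that share libraries.

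Members were wider than isolated narrow peaks found in neither replicate, with medians of 469 bp and 298 bp (289 to 307). This is a description, since a wider peak more easily overlaps another and width was part of the choice. Only 1 of 304 members (0.329%), at 194 bp, was under 200 bp wide, against 203 of 856 peaks found in neither (23.7%). None of the members and 54 of the others were under 50 bp. At the upper end, 79 members (26.0%) and 59 of the other peaks (6.89%) were 600 bp or wider. Peaks found in a single replicate lay between, at 375 bp for replicate 1 only and 403 bp for replicate 2 only. The limit of 900 bp cut through a continuous range. The widest members measured 889 bp (chrX:15181358-15182246) and 899 bp (chrX:7334164-7335062), and the first excluded peaks 909 bp (chrIV:3050161-3051069) and 919 bp (chrIII:6551206-6552124).

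**Figure D3:**
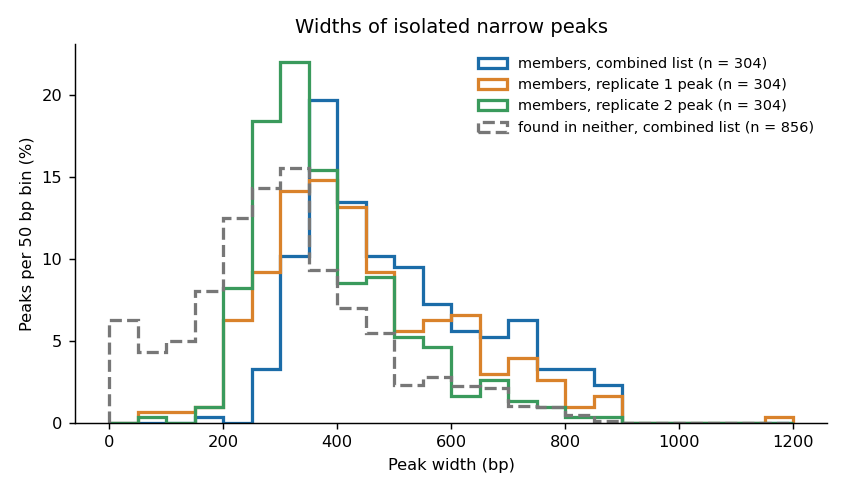
Distribution of peak width (bp, bins of 50 bp, in % of each set) for the 304 members in the combined, replicate 1 and replicate 2 lists and for the 856 isolated narrow peaks found in neither replicate. The members' medians are 469, 415.5 and 349.5 bp and that of the other peaks is 298 bp; the bins below 200 bp hold 0.329% of members and 23.7% of the peaks found in neither.

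The q-values set members and peaks found in neither replicate almost fully apart, which the choice of members fixes in large part. The median combined q was 4.26e-08 for members and 0.00326 for the others. Members spanned ranks 19 to 2131 of 4688, with 256 (84.2%) in the 25% of the list with the lowest q and none in the 50% with the highest. Of the peaks found in neither, 2 were in the first 25% and 760 (88.8%) in the last 50%. Even their strongest peak, chrI:6198485-6198869, had a combined q of only 2.50e-06 and ranked 1003rd. Those of the other chromosomes had q between 9.67e-06 at chrIV:7293651-7293961 and 3.03e-05 at chrIII:7141325-7141335, the last of which is 11 bp wide.

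Within the replicate lists the members were spread widely. They ranked from 17th to 2398th of 2420 in replicate 1 and from 18th to 1345th of 1345 in replicate 2, and their median q was 0.000207 and 0.000974. In replicate 1, 135 members (44.4%) were in the 25% of the list with the lowest q, and in replicate 2, 85 (28.0%) were. The combined q was lower than that of both replicates in all 304 members. Across members, the −log10 q values of the replicates had a Spearman's rho of 0.39 and a Pearson's r of 0.48 (n = 304). For narrow peaks in both replicates that were not isolated these were 0.34 and 0.53 (n = 396).

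The balance between the replicates differed by chromosome. Over all members, replicate 1 gave the lower q in 202 of 304. On chromosome I it did so in 31 of 33, with median −log10 q of 4.54 in replicate 1 and 2.55 in replicate 2. On X it did so in 36 of 65, with medians of 3.54 and 3.11, and on IV in 28 of 53. Isolated narrow peaks found in replicate 2 only were few on chromosome I, with 3 against 171 for replicate 1 only.

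**Figure D4:**
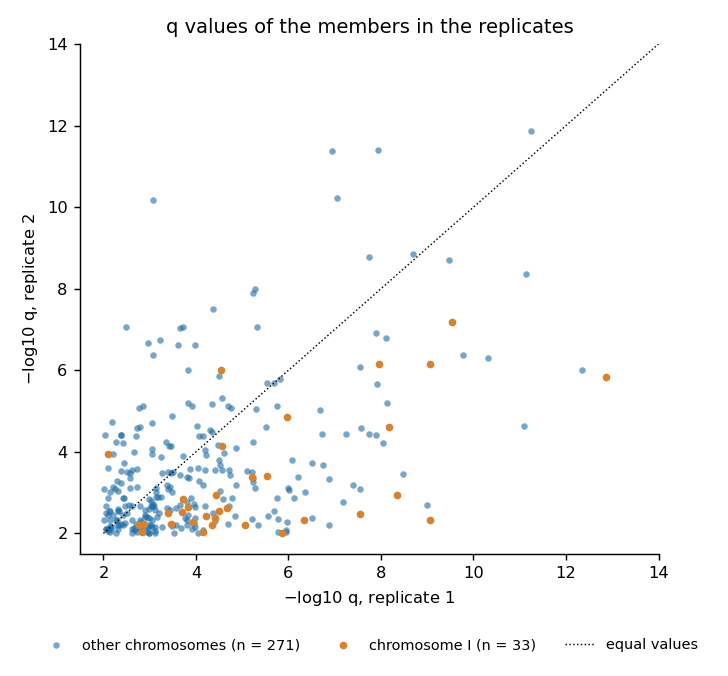
The −log10 q of each member in replicate 1 and in replicate 2, as the authors' caller gave them; the 33 members on chromosome I are marked, and the dotted line shows equal values. On chromosome I, 31 of 33 members lie on the side of the lower replicate 1 q, against 202 of 304 over all chromosomes.

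The next question was whether members and equally isolated narrow peaks found in neither replicate occupied the same places. Place within the chromosomes was not part of the rule and was tested with two-sided Fisher's exact tests over peaks, adjusted over 2 tests by the Benjamini-Hochberg method. Peaks are not replicates, so these p-values describe the lists and not worms. Of the autosomal members, 93 of 239 (38.9%, 33.0 to 45.2) lay in the central 33.3% of their chromosome's span, and of the autosomal peaks found in neither 294 of 700 did (42.0%, 38.4 to 45.7). The difference of -3.09 percentage points (Newcombe interval -10.1 to 4.18) did not pass the test (Fisher's exact test, adjusted p = 0.447). The arms are here the parts of the span outside its central 33.3%, not mapped boundaries of repeat-rich arms. They held similar shares on either side. On left arms lay 74 members (31.0%) and 205 of the other peaks (29.3%), and on right arms 72 (30.1%) and 201 (28.7%). The outermost 10% at either end held 47 members (19.7%) and 120 of the other peaks (17.1%).

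X held 65 of 304 members (21.4%, 17.1 to 26.3) and 156 of 856 peaks found in neither (18.2%, 15.8 to 21.0). The difference of 3.16 points (-1.88 to 8.68) did not pass either (Fisher's exact test, adjusted p = 0.447), and without chromosome I it was 1.31 points (-4.42 to 7.50). Along X the centre held 22 of 65 members (33.8%) and 53 of 156 of the other peaks (34.0%), a share like that of its length. These intervals still allow differences of several points in place, so the classes are not shown to be placed alike.

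Single replicates gave other calls. When replicate 2 alone decided the class, X held 113 of 482 peaks found in it and 256 of 1452 not found in it, a difference of 5.81 points (1.71 to 10.2) that passed (Fisher's exact test, adjusted p = 0.0121). Chromosome I counts among the autosomes here, and of its 375 isolated narrow peaks only 33 were found in both replicates and 3 in replicate 2 only. This difference was not computed without chromosome I, so it is not read as an excess on X. When replicate 1 alone decided, X held 165 of 900 and 204 of 1034 (-1.40 points, exact adjusted p = 0.451). The autosomal centre then held 272 of 735 peaks found in replicate 1 and 354 of 830 not found in it, a difference of -5.64 points (-10.5 to -0.781) that just passed (Fisher's exact test, adjusted p = 0.0462). With replicate 2 alone the centre difference was 1.91 points (exact adjusted p = 0.543). Both calls thus rest on a single replicate list. Besides the main rule, the centre difference was computed under 17 settings and the X difference under 11, and each passed in 1. The adjustment here covers only the centre and X tests of the same setting.

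Chromosome by chromosome, an analysis added after the data had been seen, the central share went both ways. On III 12 of 46 members (26.1%) were central, against 62 of 139 peaks found in neither (44.6%), and on IV 15 of 53 (28.3%) against 63 of 147 (42.9%). On I it was 16 of 33 (48.5%) against 62 of 168 (36.9%), on II 22 of 42 (52.4%) against 53 of 125 (42.4%), and on V 28 of 65 (43.1%) against 54 of 121 (44.6%). The differences were 11.6 points on I, 9.98 on II, -18.5 on III (-31.9 to -2.24), -14.6 on IV (-27.7 to 0.794) and -1.55 on V. None passed after adjustment over the 5 autosomes (Fisher's exact tests, lowest adjusted p = 0.179, on III and IV; lowest unadjusted p = 0.0365, on III). Whether the chromosomes differed from each other was not tested.

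**Figure D5:**
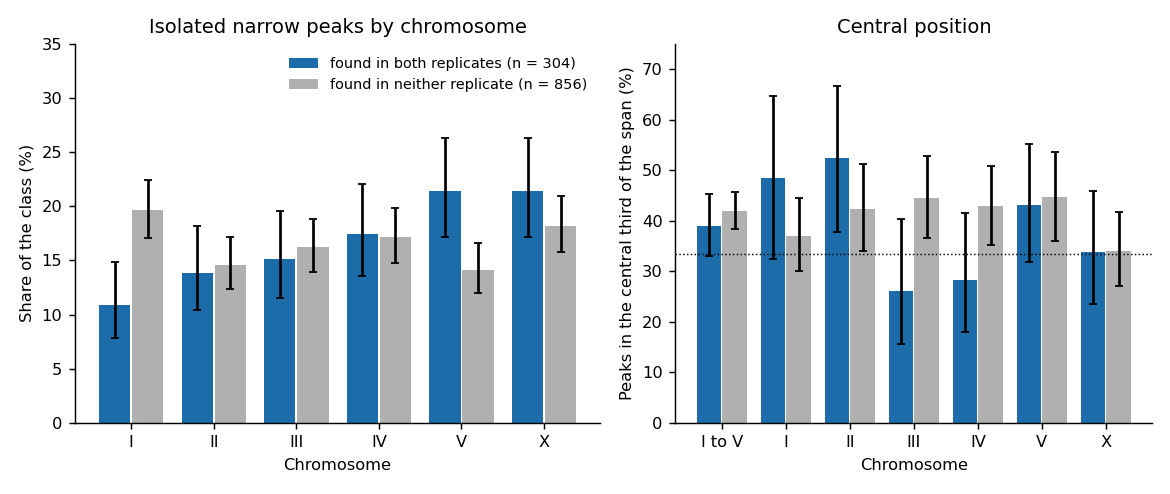
Left, share of each class (%) on each chromosome for the 304 members and the 856 isolated narrow peaks found in neither replicate; right, share of their peaks in the central 33.3% of the span (dotted line: 33.3%), over chromosomes I to V together and for each chromosome. Bars start at 0 and error bars are 95% Wilson intervals; members have the smaller share on I (10.9% and 19.6%), the larger on V (21.4% and 14.1%), and central shares of 26.1% and 44.6% on III.

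The classes were spread unevenly over chromosomes I and V. Chromosome I held 33 members (10.9%, 7.83 to 14.9) and 168 peaks found in neither (19.6%, 17.1 to 22.4). Chromosome V held 65 (21.4%, 17.1 to 26.3) and 121 (14.1%, 11.96 to 16.6). The difference was -8.77 points on I (-12.9 to -4.04) and 7.25 points on V (2.33 to 12.7), given without a test, since membership needs a replicate 2 call and those were few on I. Of the 375 isolated narrow peaks on I, 33 (8.80%) were found in both; on the other chromosomes 15.7% (II) to 21.5% (V) were in both. By length, members were densest on X, at 3.75 per Mb of span, followed by III at 3.36 and V at 3.11, and sparsest on I at 2.19. Peaks found in neither were densest on I, at 11.2 per Mb, and sparsest on V, at 5.79. They made up 44.8% of the isolated narrow peaks on I and 39.9% of those on V, against 44.3% over all chromosomes. Their density on I is thus not read as a trait of this class.

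Of narrow peaks found in both replicates, 304 of 700 (43.4%, 39.8 to 47.1) were isolated. The share was 596 of 1339 (44.5%, 41.9 to 47.2) for replicate 1 only, 178 of 361 (49.3%, 44.2 to 54.4) for replicate 2 only and 856 of 1878 (45.6%, 43.3 to 47.8) for neither. Isolation was part of the rule, so these shares are a description and their differences were not tested. The nearest other combined midpoint was a median of 11832 bp from members (10648 to 13572) and 12860 bp from peaks found in neither (11819 to 13803). Members of the autosomal centres had their nearest neighbour at 9220 bp (8092 to 11414), those of the arms at 13915 bp (10970 to 16730) and those of X at 13383 bp. Of the members, 174 (57.2%) had no other combined midpoint even within 10000 bp, against 541 of the other peaks (63.2%). The distance limit met the closest members at 5030 bp (chrV:11308902-11309407) and 5032 bp (chrIII:11185257-11185722), and the last peaks it left out lay at 4844 bp (chrX:3694174-3694717) and 4855 bp (chrIII:5422758-5423057).

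No other replicate 1 midpoint lay within 5000 bp of 303 of 304 members' replicate 1 peaks, and no other replicate 2 midpoint within 5000 bp of 301. The rule largely fixes these counts, since members were chosen to be isolated in the longer combined list, which may rest on the same reads. The nearest combined peak of a member was itself found in both replicates in 65 cases (21.4%, 17.1 to 26.3) and in neither in 118 (38.8%, 33.5 to 44.4). For peaks found in neither replicate these were 166 of 856 (19.4%, 16.9 to 22.2) and 324 (37.9%, 34.7 to 41.1). All 4 shares lay near those of the whole combined list, 18.9% and 41.4%.

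Members were scattered along every chromosome. Neighbouring members were a median of 198 kb apart, the closest pair 5935 bp and the widest gap 2.35 Mb, on chromosome I. Of 97 full 1 Mb windows, 8 held no member, and the fullest, on X, held 9. Isolated members thus occurred in windows all along X and III, where no window was empty, while I, II, IV and V had 2 empty windows each. Width and midpoint distance by place are a description, and their differences were not tested. The median width was 463 bp in autosomal centres (414 to 494), 453.5 bp on arms (423 to 503) and 501 bp on X (438 to 597). The replicate midpoints were 32.5 bp apart in centres (24.5 to 39.5), 30.2 bp on arms (22.5 to 37.5) and 37.5 bp on X (27.0 to 53.5). The intervals overlap, which does not show that the medians are alike.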

How the data were processed

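ChIP-seq of EGL-5::EGFP in L3 larvae was deposited as 3 peak lists, a combined list and 1 for each replicate. Per the file headers their coordinates are WormBase WS190 in GFF3 format, which counts from 1, and each peak's source field names PeakSeq. The value of each peak is a q-value, as the authors deposited it; none exceeded 0.01. How the combined list was made is not given in the sources used here. The same holds for the aligner, the version and threshold of PeakSeq and the inputs it used. No genome or annotation of WS190 was used, so no gene or sequence is given.

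With Python 3.11.15, pandas 2.3.3, NumPy 2.4.6, SciPy 1.17.1 and statsmodels 0.14.6, members were found by width, distance between midpoints and overlap of at least 1 bp. Where several replicate peaks could match, the one of largest overlap was taken. The span of a chromosome ran from the first to the last base called in any list. Shares carry 95% Wilson intervals, medians exact binomial intervals, and differences of shares Newcombe intervals. The member rule, list assignments and tests were checked on simulated lists. Members, named regions and tests were chosen with earlier results of these data known. Named regions are the 2 members of lowest combined q per chromosome, those of smallest and largest replicate midpoint distance, those nearest the limits of the rule, and the strongest peak found in neither replicate on each chromosome. The member without overlapping replicate peaks is also among those of largest distance.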

Additional observations from a re-analysis of the deposited data

How the results depend on the processing

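The 2 placement differences kept their direction and stayed short of the threshold under other isolation distances, width limits, definitions of overlap and isolation, a larger centre, a width of at least 200 bp, the 50% of peaks with lowest q, and without chromosome I. Their sizes moved. The centre difference was -9.14 points at 10000 bp (-17.8 to 0.264), -11.1 in the lowest-q 50% (-23.2 to 1.23) and -1.23 at a 600 bp width limit (-9.08 to 6.90). The X difference was 6.80 in the lowest-q 50% (-2.63 to 14.3) and 0.531 at 600 bp (-4.77 to 6.63). The lowest-q 50% kept only 96 peaks found in neither, 82 of them autosomal. Staying short of the threshold there does not show that the difference is small. Changes of direction, or of passing the threshold, came from leaving out a replicate list and from single autosomes, which were added after seeing the data. The centre difference then ran from -5.64 (without replicate 2, past the threshold) to 1.91 points (without replicate 1), that on X from -1.40 (without replicate 2) to 5.81 points (without replicate 1, past the threshold), and the centre difference was 11.6 points on chromosome I alone and 9.98 on II alone. Leaving out a replicate gave 482 to 900 members, with median widths of 400 to 437.5 bp, against 311.5 to 327 bp for peaks not found; distances between the replicates could then not be computed. An isolation distance of 10000 bp left 174 members. A width limit of 600 bp gave a median width of 414 bp, 16.0 bp from combined to replicate 2 midpoints and 100% of members with overlapping replicate peaks. With no width limit these were 508.5 bp and 23.8 bp, and 97.2% had a single peak in each replicate. Peaks found in neither that stand in the lowest-q 50% of the combined list had a median width of 330.5 bp. The cause was not tested, beyond what each setting itself removes. Of the 12 members named by q, 6 stayed members at 10000 bp, 10 at 600 bp, and 12 under the other settings that keep all chromosomes. Depth is unknown, so whether deeper libraries would move peaks out of the class found in neither was not tested.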

Other observations

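Isolated narrow peaks found in a single replicate add 774 regions that enter neither class above. Those found in replicate 1 only had a median combined q of 0.000172 and a median replicate 1 rank of 1546 of 2420, and 171 of 596 lay on chromosome I. Those found in replicate 2 only had a median combined q of 0.00015 and a median replicate 2 rank of 916.5 of 1345, and 3 of 178 lay on chromosome I. On autosomes 179 of 496 peaks found in replicate 1 only (36.1%, 32.0 to 40.4) and 60 of 130 found in replicate 2 only (46.2%, 37.8 to 54.7) were central, a difference seen after the fact and not tested. X held 100 of 596 (16.8%) and 48 of 178 (27.0%) of them.

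The replicate 1 midpoint lay at the lower coordinate in 168 of 304 members (55.3%, 49.6 to 60.8), with a median signed distance to the replicate 2 midpoint of -7.5 bp (-15.5 to 2). In narrow peaks of both replicates that were not isolated it did so in 216 of 396 (54.5%, 49.6 to 59.4). The combined midpoint lay between the replicate midpoints, or on one of them, in 191 members (62.8%) and outside both in 113.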
